A study of Drosophila melanogaster with 18 samples.

Results

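The genes described here were abundant in day 2 vehicle flies and far lower in day 2 CHX flies. Named chorion and vitelline membrane genes, some other named genes such as Fad2 and Ilp8, and long noncoding RNAs were left out. Other genes listed as eggshell proteins remain among them. Levels were expressed as CPM, the count of a gene over the sum of gene counts in its library, scaled to the same total in every library. A gene was a member where its mean was at least 10 CPM in vehicle and its CHX mean was under 5% of that. Of 17869 genes, 7374 reached 10 CPM in vehicle, 156 met both limits, and 29 of these were left out by name. The remaining 127 are the members, and they were chosen by their mean levels in vehicle and CHX, so that comparison is given as a description without a test. RNA was sequenced from whole flies of the laboratory strain W1118 in 3 groups of 6 libraries: flies collected on day 0, flies kept to day 2 on vehicle, and flies kept to day 2 on 1 µM cycloheximide (CHX), an inhibitor of translation. All flies were held at 24 °C, and the labels gave neither their sex nor the number of flies in a library. The study's reporting summary says in general that experiments used different fly cohorts, but neither it nor the labels assign these libraries to cohorts, so p-values measure the spread between these libraries, which may be technical.

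A fly egg is built by germ cells and by the follicle cells around them. Nurse cells load the oocyte with RNA and protein for meiosis and for the rapid nuclear divisions of the early embryo, and follicle cells secrete the vitelline membrane and the chorion in the last stages of oogenesis. Egg laying starts soon after eclosion, when ovaries mature, and both kinds of product then become a large share of the RNA of a female fly.

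Library depth ranged from 27168268 to 37860746 gene counts on day 0, from 21485737 to 27203119 in vehicle and from 24023091 to 38497201 in CHX. The vehicle libraries also stood apart in tissues that the members do not represent: summed muscle markers had a median of 59253 CPM on day 0, 2224 CPM in vehicle and 60741 CPM in CHX, and mitochondrial transcripts took a median of 18.3%, 6.61% and 19.3% of counts. Summed follicle cell markers ranged from 168 to 225 CPM on day 0, from 2455 to 11118 CPM in vehicle and from 109 to 134 CPM in CHX. Of these markers, yellow-g, yellow-g2, Vm26Aa, Vm32E, Cp36, Cp38 and psd met both limits and were left out by name, so this sum largely restates the rule. The remaining markers were br, slbo and Fas3, and slbo and Fas3 were called lower in vehicle than on day 0. Summed germ cell markers, which include the members nanos and bcd, ranged from 150 to 258, 1033 to 1234 and 120 to 210 CPM. Male germline markers summed to at most 0.522 CPM in vehicle, with 4 of 11 at 0 in all 6 libraries, and to at most 0.881 CPM in CHX. On day 0 they summed to 16.7 CPM in replicate 1 and to at most 1.11 CPM in the other libraries. The part of these shifts in the results below was not tested. In RNA from whole flies, fewer cells of a type and less RNA per cell cannot be told apart.

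Summed over the 127 members, vehicle libraries held 15284 to 20307 CPM with a median of 18013. Day 0 libraries held 704 to 1426 CPM with a median of 880, and CHX libraries held 446 to 766 CPM with a median of 522. Vehicle overlapped neither of the other groups, whereas the highest CHX library exceeded the lowest day 0 library. For the single members, the CHX mean was at a median of 3.04% of the vehicle mean, against 52.2% for the other 7247 genes with at least 10 CPM in vehicle. The day 0 mean was at a median of 5.63% of vehicle, against 54.3% for those genes. The rule used no day 0 library, but this share has the vehicle mean that chose the members below it.

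**Figure D1:**
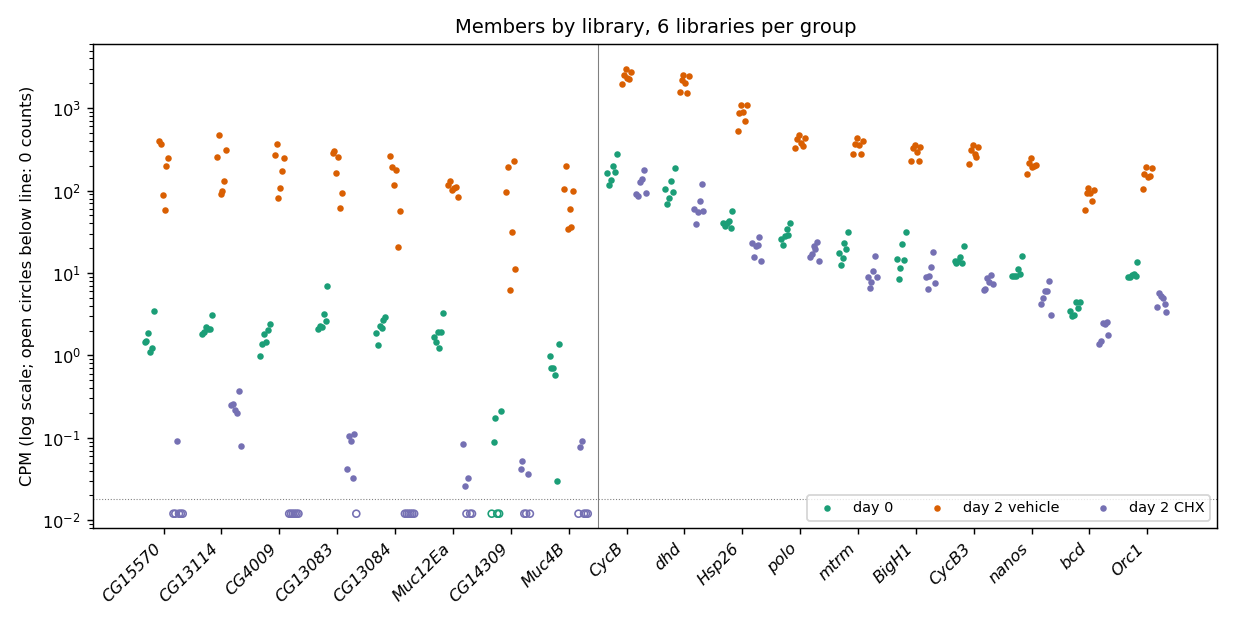
CPM (log axis) of 18 members, 8 under 1% of vehicle in CHX on the left and 10 at 1% to 5% on the right, with 1 point for each of the 6 libraries of a group and open circles below the dotted line for 0 counts. Vehicle points lie above both other groups for each of these members, from 6.23 CPM (CG14309) to 2968 CPM (CycB).

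The CHX shares were uneven. In 17 members the CHX mean was under 0.1% of vehicle, in 7 it was 0.1% to 0.5%, in 5 it was 0.5% to 1%, and then 10, 22, 32 and 34 members fell in the successive steps of 1 percentage point up to 5%. A division at 1%, chosen after these values were seen, gives 29 members below it and 98 above it. The day 0 mean had a median of 1.63% of vehicle in the 29 and 5.93% in the 98. Relative to day 0, the CHX mean was at a median of 3.88% in the 29 members and 58.3% in the 98, beside 95.7% for other genes with at least 10 CPM in vehicle. Since the division was made on the CHX level, these shares describe it and are no further difference between the 29 and the 98. The 29 summed to 22.1 to 47.0 CPM on day 0, 1337 to 3828 CPM in vehicle and 2.16 to 2.93 CPM in CHX. The 98 summed to 682 to 1379, 12250 to 18437 and 444 to 764 CPM.

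**Figure D2:**
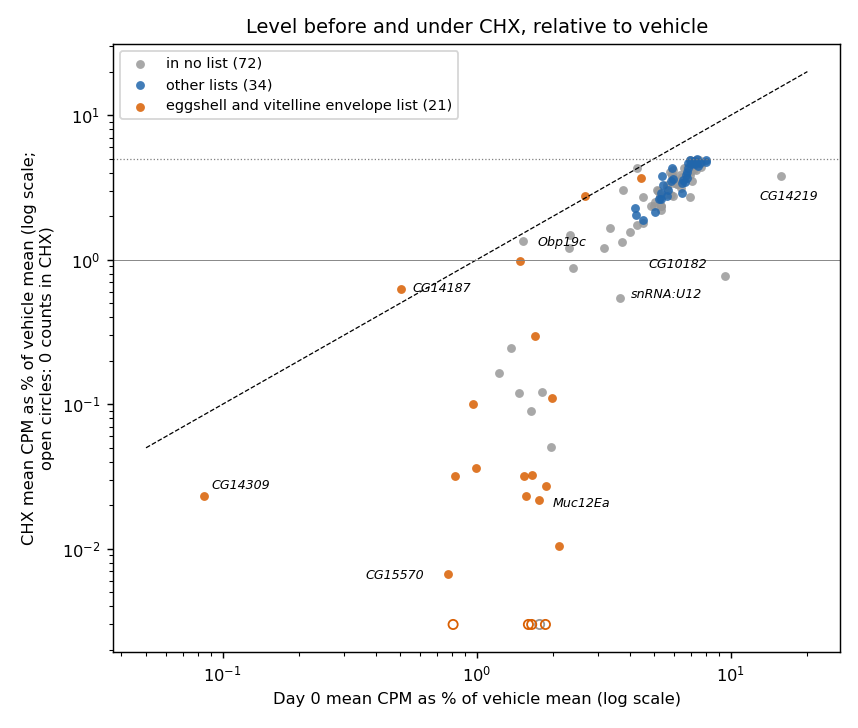
CHX mean (vertical axis, % of vehicle mean) against day 0 mean (horizontal axis, % of vehicle mean) for each of the 127 members, both on log scales, with colours for the gene lists, open circles for 0 counts in CHX, a dashed line of equal shares, a dotted line at the 5% limit and a solid line at 1%. The 98 members above 1% gather near 5.93% on day 0, and the 21 eggshell list members lie mostly below the line at 1%.

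**Figure D3:**
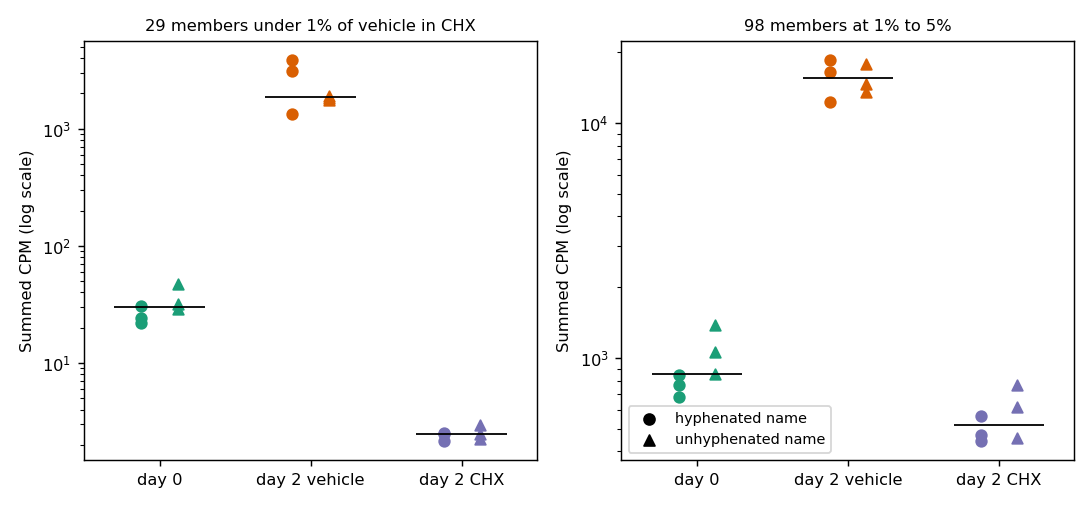
Summed CPM (log axis) of the 29 members under 1% and of the 98 members at 1% to 5% in each library of the 3 groups, with circles for hyphenated and triangles for unhyphenated library names and lines for the medians. The vehicle sums lie above day 0 and CHX in both divisions, and CHX lies below day 0 without overlap only for the 29 members.

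Most members under 1% were in the list of eggshell genes. Of 25 genes listed as eggshell or vitelline envelope proteins outside the excluded names, 21 were members and 19 of these were under 1%. Among all 7374 genes with at least 10 CPM in vehicle, 127 were members. This list was written with earlier results of these data known, so the count is a description. CG4009, a predicted haem peroxidase on chromosome 3R (17033588 to 17036045, BDGP6), had a lowest, median and highest level of 80.7, 208 and 372 CPM in vehicle and 0.994, 1.64 and 2.38 CPM on day 0, and no count in any CHX library. Taken against a floor of 3 counts over the CHX group, its vehicle mean was at least 12315-fold higher and its day 0 mean at least 99.5-fold higher. CG13084 (at least 8177.4-fold), CG31661 (at least 2278.9-fold), CG15571 (at least 1469.4-fold) and CG6508 (at least 703-fold) also had 0 counts in CHX, and their day 0 means were at least 130.6-, 37.5-, 27.4- and 12.4-fold above that floor. CG31661 and CG6508 encode predicted aspartic proteases.

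The most abundant member of this kind was CG15570 (chromosome X, 4218170 to 4223331), at 58.1, 224 and 402 CPM as the lowest, median and highest in vehicle. On day 0 these levels were 1.09, 1.46 and 3.43 CPM, and in CHX 5 libraries had 0 counts and replicate 3 had 0.0919 CPM. The count ratio of vehicle to CHX was 13820 (95% exact interval of counting error 4728 to 67016) and that of day 0 to CHX 107 (36.4 to 523). CG13114 (91.0, 192 and 472 CPM in vehicle; 1.80, 2.07 and 3.06 on day 0; 0.0803, 0.232 and 0.367 in CHX) kept a low level in every CHX library, and no group overlapped another. Muc12Ea, a mucin gene on chromosome X, ranged from 83.7 to 132 CPM in vehicle, from 1.22 to 3.22 CPM on day 0 and from 0 to 0.0833 CPM in CHX. Muc4B (34 to 197 CPM in vehicle), the mucin-related Mur11Da (0.478 to 74.1 CPM) and Femcoat, an eggshell protein gene (8.82 to 123 CPM), varied more between vehicle libraries.

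The lowest day 0 share of vehicle was that of CG14309, which was at 6.23, 63.2 and 226 CPM in vehicle but at 0, 0.0439 and 0.211 CPM on day 0 and at 0, 0.0184 and 0.0520 CPM in CHX, and the latter groups overlapped. Obp19c, an odorant-binding protein gene, was at 25.6, 99.8 and 205 CPM in vehicle and had nearly equal levels elsewhere, with 1.36, 1.49 and 1.72 CPM on day 0 and 0.918, 1.31 and 1.78 CPM in CHX. Fcp3C, a follicle cell protein gene, and CG14187 were the only members in which a CHX library was above a vehicle library. The other 125 had every CHX library below every vehicle library, which the rule largely set and 47.8% of the genes tested shared. The lowest vehicle libraries of Fcp3C and CG14187 were at 0.635 and 0.0847 CPM beside highest ones of 82.7 and 26.5 CPM.

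The 98 members at 1% to 5% included listed genes of the cell cycle and of the egg. The lists were written with earlier results of these data known, so the counts are a description. As background, 127 of the 7374 genes with at least 10 CPM in vehicle were members. Of 37 listed cell cycle genes 18 were members, of 22 listed genes of egg activation and maternal translation control 7, of 31 meiosis genes 5, of 35 DNA replication genes matched 3, of 28 maternal patterning genes 3, and of 24 germline stem cell and piRNA genes 2. None of 27 follicle cell regulators was a member, and of 20 dorsoventral and terminal genes tor, a receptor tyrosine kinase of terminal patterning, was the only one. CycB, a mitotic cyclin on chromosome 2R (22803521 to 22806948), was the member with the highest vehicle mean. Its lowest, median and highest levels were 1963, 2425 and 2968 CPM in vehicle, 118, 165 and 279 CPM on day 0 and 86.0, 110 and 177 CPM in CHX, with day 0 and CHX overlapping. Per kb of exon, dhd, a thioredoxin of the egg, led at a mean of 2152 CPM in vehicle, followed by Hsp26 at 855 and CycB at 807. For dhd the levels were 1540, 2120 and 2554 CPM in vehicle, 67.8, 101 and 188 CPM on day 0 and 39.0, 57.8 and 120 CPM in CHX.

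Other mitotic and meiotic regulators followed the same order of groups. The kinase gene polo was at 326 to 477 CPM in vehicle, 21.8 to 40.8 CPM on day 0 and 13.9 to 23.9 CPM in CHX, and mtrm, which encodes a Polo inhibitor of oocyte meiosis, at 279 to 433, 12.5 to 31.2 and 6.6 to 16 CPM. CycB3, another mitotic cyclin, was at 208 to 356 CPM in vehicle, 13.2 to 21.5 CPM on day 0 and 6.24 to 9.47 CPM in CHX, so that no group overlapped another. CycE, the cyclin of entry into S phase, had medians of 252 CPM in vehicle, 16 CPM on day 0 and 9.14 CPM in CHX. Securin and both parts of separase were members, namely pim (59.3 to 126 CPM in vehicle), thr (59.4 to 110 CPM) and Sse (21.9 to 39.6 CPM). The centromeric histone gene cid, the spindle checkpoint genes mad2 and Mps1, the kinase gene aurA and its activator gene bora, and the centriole genes ana2, ana3 and spd-2 were also among the 98. Orc1, Orc2 and Cdc6, which license replication origins, had vehicle means of 156, 60.7 and 91.3 CPM.

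Genes of egg activation and of the maternal load formed the next group. All 3 parts of the kinase complex that starts embryonic translation and divisions were members, with gnu at 155 to 262 CPM, png at 44.0 to 75.3 CPM and plu at 21.5 to 38.5 CPM in vehicle. The embryonic linker histone gene BigH1 was at 225, 311 and 356 CPM in vehicle, 8.45, 14.7 and 31.2 CPM on day 0 and 6.44, 9.12 and 18 CPM in CHX. The anterior determinant bcd was at 57.4, 93.4 and 107 CPM in vehicle, 3.01, 3.63 and 4.41 CPM on day 0 and 1.37, 2.07 and 2.53 CPM in CHX, and all 3 groups were apart. The posterior determinant nanos was at 161, 203 and 248, 9.09, 9.5 and 16.2, and 3.13, 5.47 and 7.90 CPM. Both swa, needed for bcd RNA localization, and zld, the activator of the zygotic genome, were members.

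Of the 127 members, 72 were in none of the lists, and 10 of these were under 1%. Among the abundant ones were the small heat shock protein genes Hsp26 and Hsp27. Hsp26 was at 529, 886 and 1103 CPM in vehicle, 35.0, 40.5 and 56.3 CPM on day 0 and 14.0, 21.4 and 27.3 CPM in CHX, with no overlap between groups. The germ cell nuclear gene Gcna was at 232 to 411 CPM in vehicle, and Cyp6a19, a cytochrome P450 gene, at 223 to 362 CPM. Digestive genes were also present, namely the serine protease genes Jon65Ai, Jon66Ci and Jon99Fi and the lysozyme gene LysX, which belong to families of similar copies whose reads the counting could split. Summed midgut markers were at a median of 1662 CPM on day 0, 3678 CPM in vehicle and 1720 CPM in CHX, and the part of this in the digestive members was not tested. A total of 43 members carried only a CG number as symbol, 23 of them among the 29, and the identifier of 1 member matched no symbol in the annotation used.

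Vehicle was then set beside day 0, over early adulthood. Members were chosen for a high level in these same vehicle libraries, so their counts and fold changes are a description, largely fixed by the choice, and no p-value is given for them. The 18 libraries were fitted together with edgeR's quasi-likelihood test, with the name series of the libraries as covariate, and p-values were adjusted over all 11051 features tested. All 126 members tested were called higher in vehicle, where 82.9% of all features were called, 41.8% higher and 41.1% lower, so most of the transcriptome moved between these groups. Nothing about the members is read from that count. The log2 fold changes of members ranged from 1.85 to 9.56 with a median of 3.69, whereas the median of all features was -0.0043. Scaled by library size alone, the median of all features moved to 0.49 and that of members to 4.18, and 63.5% of calls over all features were higher in vehicle in place of 50.4% with TMM. With upper quartile scaling these values were -0.22, 3.46 and 42.9%, so the direction of the median of all features depended on the scaling. The median of members kept its direction, which their choice for a high vehicle level largely fixed. CycB rose by a log2 fold change of 3.35 (SE 0.20), dhd by 3.77 (SE 0.27), Hsp26 by 3.87 (SE 0.21) and bcd by 4.09 (SE 0.17). CG15570 rose by 6.44 (SE 0.51) and CG14309 by 9.56 (SE 1.12). The smallest change was that of CG14219, at 1.85 (SE 0.76).

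All 6 day 0 libraries were below all 6 vehicle libraries in CPM for 120 of the 127 members, a pattern that 47.5% of the genes tested showed and that the choice of members favours. The exceptions were CG14205, LysX, Fcp3C, Mur11Da, CG14219, CG10182 and CG14187. Over whole lists, members included, 37 of 37 cell cycle genes (18 of them members), 24 of 24 eggshell genes tested (20 members), 18 of 20 egg activation genes (7 members) and 33 of 34 replication genes (3 members) were higher in vehicle, and 1 replication gene was lower. Follicle cell regulators, with 7 higher and 14 lower of 26, and dorsoventral and terminal genes, with 9 higher and 10 lower of 20, did not move in 1 direction.

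CHX was next set beside day 0. The rule used no day 0 library, but it chose members for a low mean in these same CHX libraries, so here too the members' counts and fold changes are a description and support nothing about them. Only 61 features, or 0.552%, passed the test, and all 61 were lower in CHX. Members made up 43 of the 61, a share of 34.1% of the 126 tested, and genes left out by name 12 more. Without day 0 replicate 6 the member count was 26, without CHX replicate 2 it was 25 and without CHX replicate 6 it was 27. With DESeq2 it was 75, and with limma-voom 16. The median log2 fold change of members was -0.81, against 0.0020 over all features, and 124 of 126 members had a negative value. All CHX libraries lay below all day 0 libraries for 56 of 127 members, which 1.29% of the genes tested did. The day 0 libraries were also the controls of the preceding comparison.

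Among the members under 1%, 15 of 28 tested were lower in CHX than on day 0, with a median log2 fold change of -4.43, and the CHX level used to divide the members is 1 side of that fold. The log2 fold change was -6.14 for Muc12Ea (SE 0.44), -5.50 for CG13083 (SE 0.75), -5.28 for CG15721 (SE 0.51), -5.10 for CG32642 (SE 0.52) and -3.21 for CG13114 (SE 0.55). These genes were already at 1.30 to 3.22 CPM on average on day 0, and at most 0.367 CPM in any CHX library.

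Among the 98 members at 1% to 5%, 28 were lower in CHX and the median log2 fold change was -0.71. The log2 fold change was -1.22 for the securin gene pim (SE 0.18), -1.09 for Orc1 (SE 0.15), -0.93 for CycB3 (SE 0.15), -0.94 for nanos (SE 0.19) and -0.83 for bcd (SE 0.17). For Cyp6a19 it was -1.24 (SE 0.19) and for Hsp26 -0.97 (SE 0.19). Among the most abundant members Hsp26, mtrm and Gcna were called lower, whereas CycB, dhd and polo were not. CycB had a log2 fold change of -0.50 (SE 0.19), dhd of -0.66 (SE 0.24) and polo of -0.63 (SE 0.15). Over whole lists, members included, 11 of 24 eggshell genes, 7 of 37 cell cycle genes, 2 of 34 replication genes, 2 of 27 meiosis genes, 2 of 26 maternal patterning genes and 2 of 23 germline stem cell and piRNA genes were lower by edgeR's test. Of 20 egg activation genes 0 were lower with edgeR and 0 with DESeq2 or limma-voom, and 8 had a lower value at an unadjusted p under 0.05. Of 20 dorsoventral and terminal genes 0 were lower with edgeR and 1 with DESeq2, with 2 at an unadjusted p under 0.05, and of 26 follicle cell regulators 0 were by any of these counts.

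The members also differed in how they varied between vehicle libraries. The coefficient of variation over the 6 vehicle libraries had a median of 59.6% in the members under 1% and 20.7% in the others. Vehicle replicate 3 had the lowest sum of the 29, at 1337 CPM, and the highest sum of the 98, at 18437 CPM. It was the highest vehicle library for 69 of the 98 members and the lowest for 12 of the 29. On day 0, replicate 6 was the highest library for 80 of the 98 and 18 of the 29. Without it, the median day 0 share of vehicle was 1.44% in the 29 and 5.56% in the 98.

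The library names fall into a hyphenated series, replicates 1 to 3 of each group, and an unhyphenated one, replicates 4 to 6, and the labels do not say what the names mark. Within vehicle, 6 of 127 members differed between the series by edgeR's test, where 6.05% of all features did (2.69% higher in the hyphenated series and 3.36% lower), so this share was near the background. Of the calls over all features, 44.5% were higher in the hyphenated series with TMM scaling, 34.4% with upper quartile scaling and 33.8% with library sizes alone. The count was 3 without vehicle replicate 1 and 12 without vehicle replicate 4. Those higher in the hyphenated series were the fat body gene fit, Jon66Ci, Jon99Fi, Srg3 and PH4alphaPV, a prolyl hydroxylase gene. In replicates 1 to 6, fit was at 110, 63.5, 60.9, 15.5, 16.6 and 4.06 CPM and Jon66Ci at 38.9, 49.8, 20.4, 4.89, 5.40 and 6.89 CPM, with no overlap between the series. CG14219 was lower in the hyphenated series, with 1.53, 4.67 and 1.40 CPM against 11.4, 56.6 and 58.3 CPM. Its log2 difference was -3.97 (SE 0.97), and that of fit was 2.77 (SE 0.44, edgeR adjusted p = 0.000726). CG14219 reached a vehicle mean of 10 CPM only through the unhyphenated libraries, and Jon66Ci only through the hyphenated ones. The limit of the rule thus favours their calls, which are a description. Over the 127 members in vehicle, 106 had a positive log2 difference, with a median of 0.12 against 0.031 over all features. Among the 29 under 1%, 24 were positive, with a median of 0.59. In edgeR's test 15 members had an unadjusted p under 0.05, and 2 of these were lower in the hyphenated series. Within day 0, 0 of 127 members differed between the series with edgeR, where 0.476% of all features did (0.312% higher in the hyphenated series and 0.165% lower), and DESeq2 called 4 members. An unadjusted p under 0.05 was found for 34 members, all lower in the hyphenated series. Over the 127 members 116 had a negative log2 difference on day 0, with a median of -0.45 against -0.0096 over all features. Day 0 replicate 6, of the unhyphenated series, was the highest library for 80 of the 98 members and 18 of the 29. The shares of all features at an unadjusted p under 0.05, or of either sign, were not computed. Nothing about the members is therefore read from these unadjusted and sign counts, on day 0 or in vehicle.

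**Figure D4:**
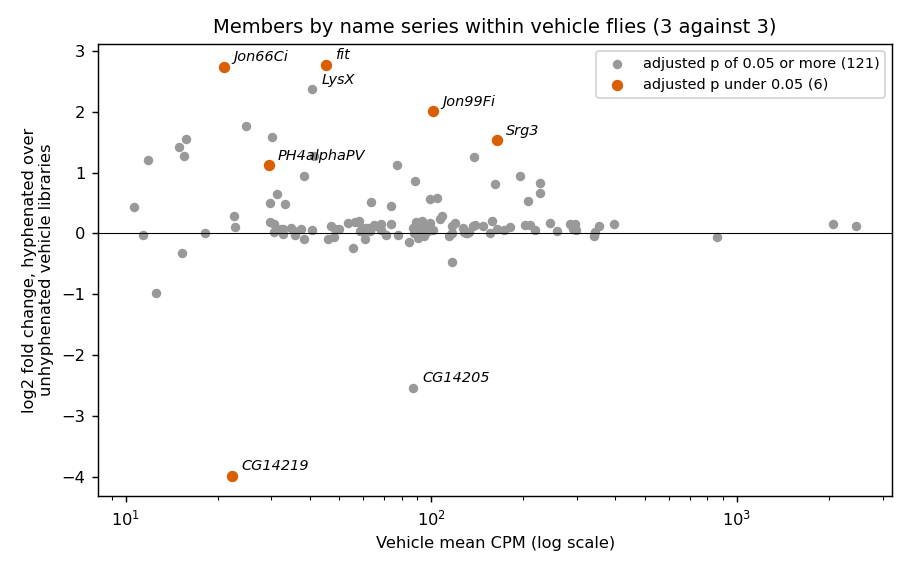
Log2 fold change of the hyphenated (replicates 1 to 3) over the unhyphenated (replicates 4 to 6) vehicle libraries against vehicle mean CPM (log axis), 1 point per member. The 6 members with an adjusted p under 0.05 are coloured, 5 above 0 and CG14219 below, and most of the other 121 lie near 0.

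Position and gene structure were not used by the rule. Of 126 members placed on the BDGP6 annotation, 36 (28.6%) had a single exon block, against 9.01% of the other genes with at least 10 CPM in vehicle, and 31 (24.6%) lay on chromosome X, against 17.2%. The median exon length was 1893 bp, against 2198 bp. None of the 29 members under 1% lay on 2R, where 19 of the members and 20.3% of the other genes with at least 10 CPM in vehicle were. Runs of members with gaps of at most 20 kb held 24 members in 9 runs, and 15 of these were from the 29 under 1%. Runs among other genes were not counted, so these counts do not measure clustering.

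The run on X from 4216873 to 4246139 held CG15571, CG15570, Femcoat and Muc4B with no other gene between them. On 2L, CG31928, CG31926 and CG31661, which encode predicted aspartic proteases, stood within 6289 bp (1492295 to 1498583). Their vehicle levels were 26 to 86.4, 6.84 to 69.2 and 23.9 to 46.4 CPM, and their CHX levels at most 0.0401, 0.0260 and 0 CPM. A run of 17012 bp on X (12959220 to 12976231) held CG32642, Mur11Da, CG15721 and CG12716, of which CG15721 had the narrowest range in vehicle relative to its lowest level, 59.3 to 123 CPM. On 2L, CG13084 and CG13083 (19484930 to 19488691) and CG13113 and CG13114 (9544171 to 9547424) formed pairs. On 3L, Klp67A, a kinesin gene, Hsp26 and Hsp27 lay within 9362636 to 9385694 with 12 other genes between them. Only Nek2, at 15844 bp from dec, and CG7730, which overlaps Ilp8 on the opposite strand, lay within 20 kb of a gene left out by name.

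**Figure D5:**
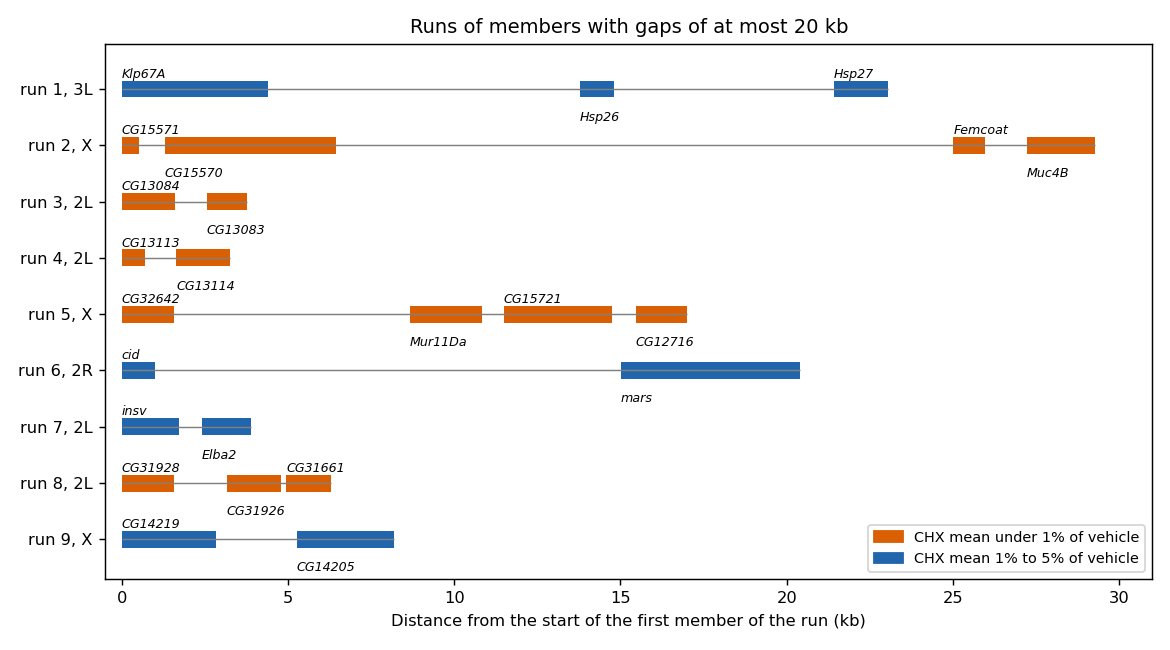
The 9 runs of neighbouring members, each member drawn as a box to scale by distance from the start of its run (kb) and coloured by CHX share. The 15 members under 1% stand in 5 runs on X and 2L, and no run mixes both colours.

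Reads of a gene and of an overlapping gene on the opposite strand could not be separated, since the strand setting of the counting was not given in the sources used here. This bears on 39 members, among them Orc1, nanos, CycE, Muc12Ea, CG15721, CG13083, CG31661, Hsp27 and Cyp6a19. At the limits of the rule, Cdc6 (4.99%), Rca1 (4.93%) and Cks30A (4.90%) were just inside the 5% share and mei-38 (5.01%), msb1l (5.02%) and Marf1 (5.12%) just outside. At 10 CPM, CG14187 (10.7), snRNA:U12 (11.4) and CG6508 (11.9) were just inside and CG13138 (9.95), CG12708 (9.71) and gd (9.34) just outside.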

How the data were processed

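The deposited values were raw read counts per gene, which the authors made with bcl2fastq 2.18.0.12, STAR 2.7.10a and HTSeq 0.12.3 on BDGP6, per the submitters' processing notes. The strand setting was not given in the sources used here. HTSeq summary lines, which name no gene, held 8.46% to 11.6% of counts and were left out, and 0 columns of per-sample values were left unused.

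The members, gene lists and tests were chosen with earlier results of these data known. Symbols and positions came from the Ensembl 115 annotation of BDGP6. Counts were tested in edgeR 4.0.16 (R 4.3.3) with TMM scaling, filterByExpr and the robust quasi-likelihood F test over all 18 libraries, with the name series as covariate, and Benjamini-Hochberg adjusted p under 0.05 was the threshold. On simulated counts for vehicle against day 0, 95% of 2-fold and 99% of 4-fold changes were recovered, with 14 false calls of 208. For CHX against day 0 these values were 93% and 98%, with 7 of 198. Between the name series within vehicle they were 77% and 96%, with 8 of 181. Within day 0 they were 82% and 100%, with 7 of 189. The 208 calls were among 10951 features, whereas 82.9% of features were called for vehicle against day 0 in the data. Recovery under so broad a shift was not tested, and recovery was not split by level. Alternatives were DESeq2 1.42.0, limma 3.58.1 voom, other scalings, filters and limits, single name series, a replicate block and leaving out each library. Replicates of a group differed by at least 11.7 times the counting variance, so none was counted as a duplicate.

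Members were named by a rule: highest vehicle level, 0 counts in CHX, extreme day 0 shares, extreme differences between name series, the top 4 of each list, the runs and the limits. Others were named for a known role after their values were seen. Intervals and floors cover counting error only. Protein features and sequences were not analysed here.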

Additional observations from a re-analysis of the deposited data

Results flagged for a closer look

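Within a group of 6 libraries, a value was singled out by its gap to the nearest library. The limit was Dixon's 95% critical share of the range of the group, which chance gives in about 1 of 20 groups of independent, normally spread values. Of 157 groups examined over the named members, 22 met this limit, and 12 of these were day 0 replicate 6. The genes shared libraries, some were named for an extreme day 0 share, and some had counts in only 1 CHX library. The count of 22 is therefore not set against that rate. In that library Hsp26 was at 56.3 CPM (others 35.0 to 42.4), CycB3 at 21.5 (13.2 to 15.7), CycE at 22.5 (14.2 to 16.8) and nanos at 16.2 (9.09 to 11.3). Orc1 was at 13.6 CPM (8.92 to 9.73), Cdc6 at 10.7 (5.23 to 6.47), sub at 6.71 (3.77 to 4.20) and CG5235 at 7.37 (3.42 to 4.71). Of the eggshell list, CG13083 was at 6.92 CPM (2.10 to 3.22), CG15570 at 3.43 (1.09 to 1.86), CG13114 at 3.06 (1.80 to 2.22) and CG31661 at 1.27 (0.439 to 0.678).

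Day 0 replicate 4 was set apart for CG14219 at 16.6 CPM (others 0.598 to 1.35), CG10182 at 6.24 (0.0704 to 0.296) and Srg3 at 18.3 (4.59 to 8.53). In CHX, fit was at 2.02 CPM in replicate 5 (0.364 to 0.725), Femcoat at 0.250 in replicate 1 (0.0330 to 0.0803), CG32642 at 0.215 in replicate 3 (0 to 0.0416) and CG15721 at 0.132 in replicate 4 (0 to 0.0306). CG15570 in CHX replicate 3 (0.0919 CPM), CG13113 in replicate 1 (0.0833 CPM) and Mur11Da in replicate 1 (0.0416 CPM) were the only CHX libraries of these genes with a count.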

How the results depend on the processing

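The number of members was 47 with a CHX limit of 2.5%, 312 with 10%, and 69 with TMM-scaled CPM, and 118 to 134 when a vehicle or CHX library was left out. For CHX against day 0, where 43 members were lower by edgeR's test, DESeq2 called 75 and limma-voom 16, a filter of at least 10 counts in every library left 21, the hyphenated libraries alone gave 13 and the unhyphenated alone 11. Leaving out each library in turn gave 25 to 53. For vehicle against day 0 the count was 125 to 126 over the same omissions. Between the name series in vehicle, limma-voom called 15 members in place of 6, and leaving out a library gave 3 to 12. In day 0, DESeq2 called 4 in place of 0, and each omission gave 0 with edgeR. The cause of these differences was not tested. No log2 fold change of a named member that the text prints changed direction in any alternative run. Of the alternative values for named members, 734 stayed on the same side of the threshold, 60 no longer passed it and 5 passed it newly. Same-numbered libraries had correlations from -0.55 to 0.66 (median -0.086, over 0.1 in 4 of 18). Between day 0 and CHX those of replicates 1 to 3 were 0.66, 0.41 and 0.20 and those of replicates 4 to 6 -0.14, -0.55 and -0.22, so the numbers were not taken to pair the libraries, and replicate 2 of day 0 correlated more with CHX replicate 3 (0.56) than with its own number. As a check, with a replicate block 37 members were lower in CHX than on day 0 and 125 were higher in vehicle than on day 0. Depth limits the members near 0 in CHX, where a few counts set the ratio.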

Other observations

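CG14205, CG14219 and CG10182 shared a pattern over libraries that was noticed after their values were seen. In vehicle replicates 1 to 6, CG14205 was at 19.0, 45.3, 9.82, 64.1, 191 and 196 CPM, CG14219 at 1.53, 4.67, 1.40, 11.4, 56.6 and 58.3 CPM, and CG10182 at 11.6, 9.59, 3.43, 7.63, 21.5 and 21.7 CPM. All 3 were highest in replicates 5 and 6 and lowest in replicate 3. On day 0 each was highest in replicate 4, at 25, 16.6 and 6.24 CPM. CG14205 and CG14219 are neighbours on chromosome X (19587348 to 19595548), whereas CG10182 lies on 3R.

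Spermatheca markers summed to 213 to 566 CPM on day 0, 46.0 to 137 CPM in vehicle and 252 to 521 CPM in CHX, and so were lowest in vehicle. Markers of the male accessory gland, at 89.3 to 148, 50.5 to 174 and 93.5 to 153 CPM, overlapped between all groups. Of these 10 markers, 3 were at 0 in every library on day 0, 2 in vehicle and 4 in CHX. SP and Acp95EF were among them in each group. Early zygotic embryo genes were at 68.2 to 81.0, 79.0 to 119 and 74.3 to 82.5 CPM.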
